A study of Mus musculus with 14 samples.

Results

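Autotaxin, encoded by Enpp2, and 5 receptors of lysophosphatidic acid (LPA), encoded by Lpar1, Lpar2, Lpar3, Lpar4 and Lpar6, were followed across 5 lines of mouse ovarian cancer cells. The members were taken by gene symbol, and all 6 were found among the 35275 genes measured. KMF cells, of C57Bl6 origin, came from ID8 ovarian tumor cells carried through mice. FAK KO cells (FAK-/-, clone KT13) are 1 CRISPR clone of KMF cells with edited Ptk2, the gene of focal adhesion kinase (FAK). FAK-WT cells are KT13 with lentiviral GFP-FAK, FAK-R454 cells are KT13 with kinase-inactive GFP-FAK-R454, and β-catenin ΔGSK cells are KT13 with retroviral active β-catenin. All 3 of these lines therefore carry the KT13 knockout and were also drug-selected and sorted. Since every FAK KO-derived line descends from 1 clone, loss of FAK and isolation of that clone cannot be told apart in comparisons with KMF. All cells grew as tumorspheres for 5 days in serum-free medium, and poly(A) RNA was sequenced from 3 samples of each line, except that 2 are analysed here for FAK-R454, for which the study's methods describe 3. The study's methods describe the KMF RNA samples as independent and taken at different passages, and the labels say nothing of separate cultures for any line, so p-values measure the spread between these samples, which may be technical.

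Autotaxin is a secreted lysophospholipase D that makes LPA from lysophosphatidylcholine outside the cell. LPA then acts through G protein-coupled receptors. LPAR1, LPAR2 and LPAR3 belong to the EDG family, whereas LPAR4 and LPAR6 belong to the purinergic-like group. LPA is abundant in the ascites of ovarian cancer, and lipid phosphate phosphatases at the cell surface break it down.

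Between 25390558 and 35289859 fragments per sample fell on genes. Ptk2 mRNA averaged 24.3 FPKM (fragments scaled to gene length and library size) in KMF, 19.0 for FAK KO, 43.4 for FAK-WT, 62.4 for FAK-R454 and 15.5 for β-catenin ΔGSK cells. These values do not separate edited alleles from GFP-FAK. Ctnnb1, the β-catenin gene, averaged 199.9, 144.6, 128.6, 136.2 and 214.1 FPKM in the same order. The value for β-catenin ΔGSK cells likewise does not separate their own Ctnnb1 from the introduced β-catenin. Of 9 epithelial and ovarian markers 5 were above 1 FPKM in every line, among them Krt8, Krt18 and Wt1, whereas the other 4 (Krt7, Pax8, Epcam and Cdh1) were below 1. The summed level of 3 leukocyte markers was at most 0.00759 FPKM in any sample, that of 2 adipocyte markers at most 0.341, and that of 3 endothelial markers ran from 0.174 to 1.31. FAK-WT replicate 3 stood apart from its line, with a mean chi-square per gene of 42.5 and 30.5 against the other FAK-WT samples, which differed from each other by 3.15. KMF replicate 3 stood apart likewise, at 23.8 and 29.0 against 4.59, and β-catenin ΔGSK replicate 1 at 18.1 and 30.4 against 8.75, while the FAK KO pairs ran from 8.17 to 22.2. In these bulk samples, fewer cells of a type and less RNA per cell cannot be told apart.

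Levels were compared between 2 lines at a time with limma on the log2(FPKM + 0.1) scale, among genes with a mean above 1 FPKM in at least 1 of the lines, with Benjamini-Hochberg adjustment over all genes tested. Calls required an adjusted p under 0.05, a difference of at least 1 on the log2 scale and a mean above 1 FPKM in the higher line. The pseudocount of 0.1 understates changes of low genes, and Lpar4 reached 1 FPKM in no line. The low receptors were therefore also tested with limma-voom on the fragment counts recovered from FPKM, among genes with at least 10 fragments, a test chosen after seeing the data. Of the 6 comparisons, 4 include FAK KO samples and so share those values.

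Enpp2 (ENSMUSG00000022425, chromosome 15, 54838898 to 54920146, minus strand, mm10) was the most abundant member in every sample. Its level was 36.2, 42.2 and 29.2 FPKM for the KMF samples, 38.2, 35.4 and 41.4 for FAK KO, 92.3, 86.8 and 52.3 for FAK-WT, 29.6 and 30.2 for FAK-R454, and 79.6, 66.8 and 79.7 for β-catenin ΔGSK. Every FAK-WT and β-catenin ΔGSK sample was above every sample of the other 3 lines. In order of mean level, FAK-WT (77.1 ± 21.7 FPKM, SD, n = 3) overlapped β-catenin ΔGSK (75.4 ± 7.42, n = 3), and then, after a gap, FAK KO (38.4 ± 3.04, n = 3) overlapped KMF (35.9 ± 6.50, n = 3), which overlapped FAK-R454 (29.9 ± 0.458, n = 2).

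**Figure D1:**
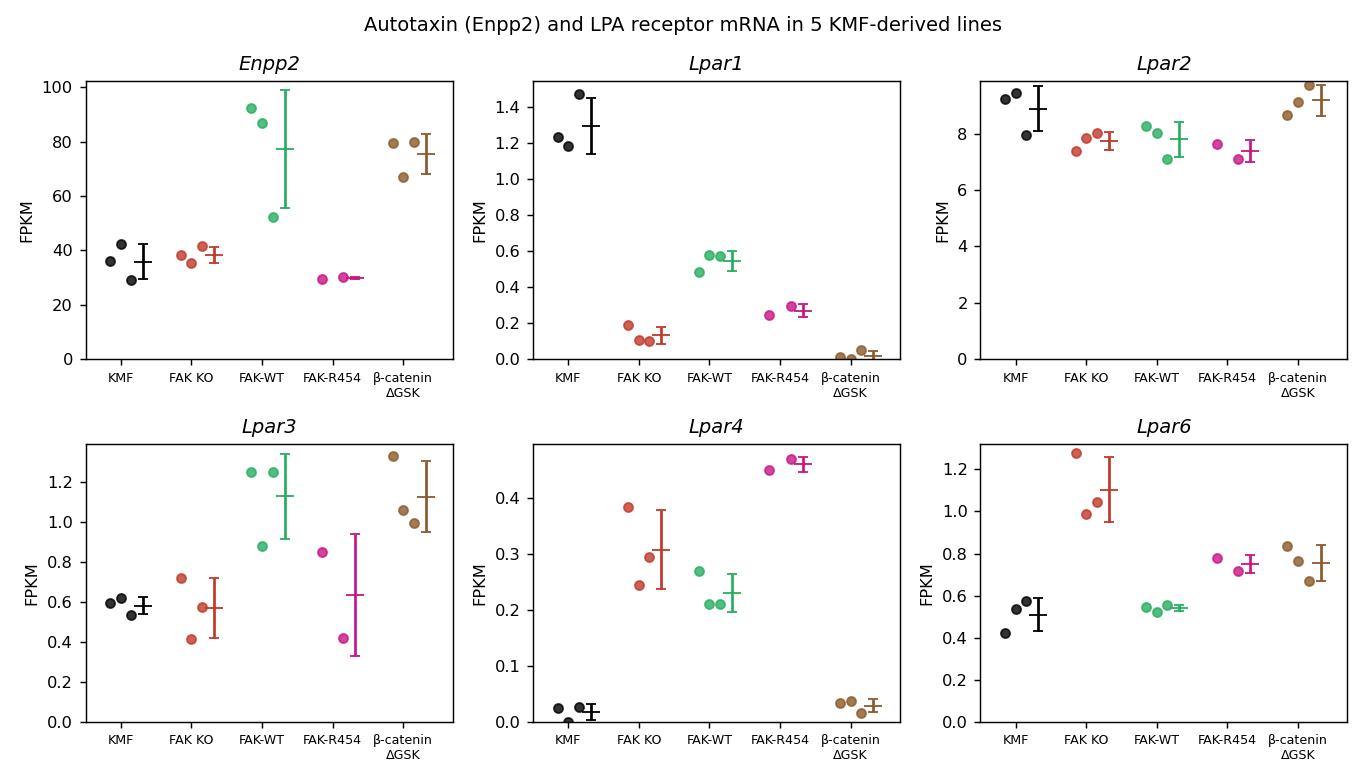
FPKM of each member (vertical axes, each from 0) in the 5 lines; points are samples and the bar beside them is the mean ± SD (n = 3, or 2 for FAK-R454). Enpp2 was high in FAK-WT and β-catenin ΔGSK, Lpar1 was highest in KMF, Lpar4 was near 0 in KMF and β-catenin ΔGSK, and Lpar6 was highest in FAK KO.

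Enpp2 rose in FAK-WT over FAK KO cells by a log2 fold change of 0.97 (SE 0.19, limma adjusted p = 0.00582), just under the fold needed for a call. FAK-WT replicate 3 was the lowest of its line, and the log2 fold change without it was 1.22; without any other 1 sample it was 0.81 to 1.02, with limma adjusted p-values of up to 0.0275. In β-catenin ΔGSK over FAK KO cells Enpp2 rose by a like amount, 0.97 on the log2 scale (SE 0.09, limma adjusted p = 3.47e-05). Against kinase-inactive FAK, FAK-WT exceeded FAK-R454 by 1.32 (SE 0.24, limma adjusted p = 0.0309). That call was lost without the low-expression filter (adjusted p = 0.0588, limma) and without the variance trend (adjusted p = 0.0526, limma). It was also lost without FAK-WT replicate 1 or 2, or without either FAK-R454 sample, which leaves 1 sample in that line. The log2 fold change stayed at 1.17 to 1.58 over the samples left out, with 1.58 without FAK-WT replicate 3. FAK-WT also exceeded parental KMF cells, by 1.07 (SE 0.23, limma adjusted p = 0.00818), a call that lost the fold, though not the test, without KMF replicate 3 (0.93) or FAK-WT replicate 1 (0.92) or 2 (0.97).

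FAK-R454 cells held less Enpp2 mRNA than FAK KO cells by 0.35 on the log2 scale (SE 0.08, limma adjusted p = 0.0179), but the adjusted p was 0.231 in 1 limma fit of all 5 lines, and the test also failed without FAK KO replicate 3 or either FAK-R454 sample. With limma-voom the FAK-R454 difference was -0.36 (adjusted p = 0.00725), and it was -0.50 after each chromosome was centred on its own median (limma adjusted p = 0.00516). FAK KO and KMF did not differ beyond their spread in Enpp2 (log2 fold change 0.11, 95% interval -0.18 to 0.40, limma adjusted p = 0.491). Without KMF replicate 3 that value was -0.03.

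Enpp2 lies on chromosome 15, as does Ptk2, and other genes of this chromosome moved in FAK-WT cells too. In FAK-WT over FAK KO cells the median log2 fold change was 0.30 over 478 tested chromosome 15 genes against -0.08 over all genes, and 17 of the 20 tested genes nearest to Enpp2 were above 0. After each chromosome was centred on its own median, the rise of Enpp2 in FAK-WT over FAK KO was 0.65 (limma adjusted p = 0.0268), or 0.89 when FAK-WT replicate 3 was also left out. The part of the chromosome-wide shift in the rise of Enpp2 was not tested beyond this. In β-catenin ΔGSK over FAK KO cells the chromosome 15 median was 0.01 and Enpp2 remained at 0.97 when centred, although the 20 genes nearest to it had a median of 0.20 with 11 above 0, against 0.28 in FAK-WT over FAK KO. In FAK-WT over KMF centring lowered Enpp2 to 0.85 (limma adjusted p = 0.0254), under the fold, and raised Lpar3, on chromosome 3, to 1.16 (limma adjusted p = 0.00385), past it. In FAK-WT over FAK-R454 cells the chromosome 15 median was 0.15 against -0.05 over all genes, with 17 of the 20 nearest genes above 0. Centring lowered Enpp2 there to 1.17 (limma adjusted p = 0.0424). In that comparison 3 of 479 chromosome 15 genes were at or above Enpp2, against 37 of 478 in FAK-WT over FAK KO.

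**Figure D2:**
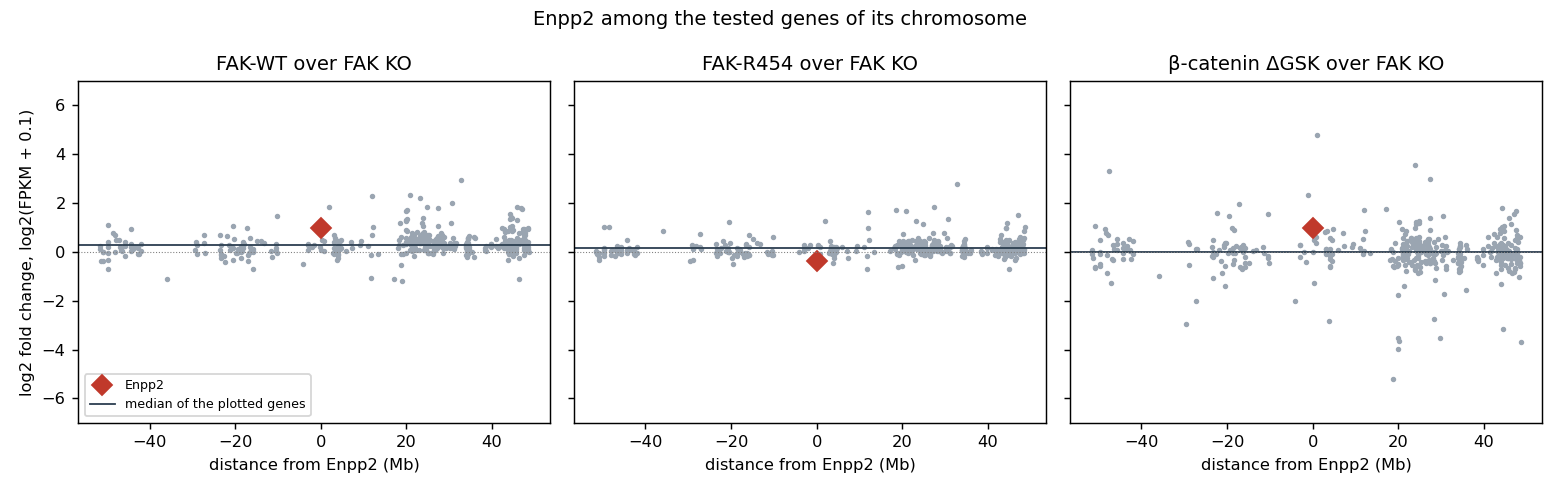
Log2 fold change on the log2(FPKM + 0.1) scale (vertical axis) of tested chromosome 15 genes by distance from Enpp2 in Mb (horizontal axis); the diamond is Enpp2 and the line is the median of the plotted genes. The line is at 0.30 for FAK-WT, 0.14 for FAK-R454 and 0.01 for β-catenin ΔGSK cells over FAK KO, with Enpp2 above it, below it and above it.

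Among the receptors, Lpar2 was the most abundant in every sample, with 73.3 to 84.9% of the summed FPKM of the 5 receptors. The 5 receptors together summed to 11.3 ± 0.642 FPKM for KMF, 9.86 ± 0.228 for FAK KO, 10.2 ± 0.570 for FAK-WT and 11.1 ± 0.308 for β-catenin ΔGSK (SD, n = 3 each), and 9.49 ± 0.679 for FAK-R454 (n = 2). The share of Lpar1 was 11.6 ± 2.08% for KMF and 0.170 ± 0.220% for β-catenin ΔGSK (SD, n = 3 each). That of Lpar6 was 11.2 ± 1.44% for FAK KO, more than its 4.54 ± 0.880% for KMF (SD, n = 3 each).

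**Figure D3:**
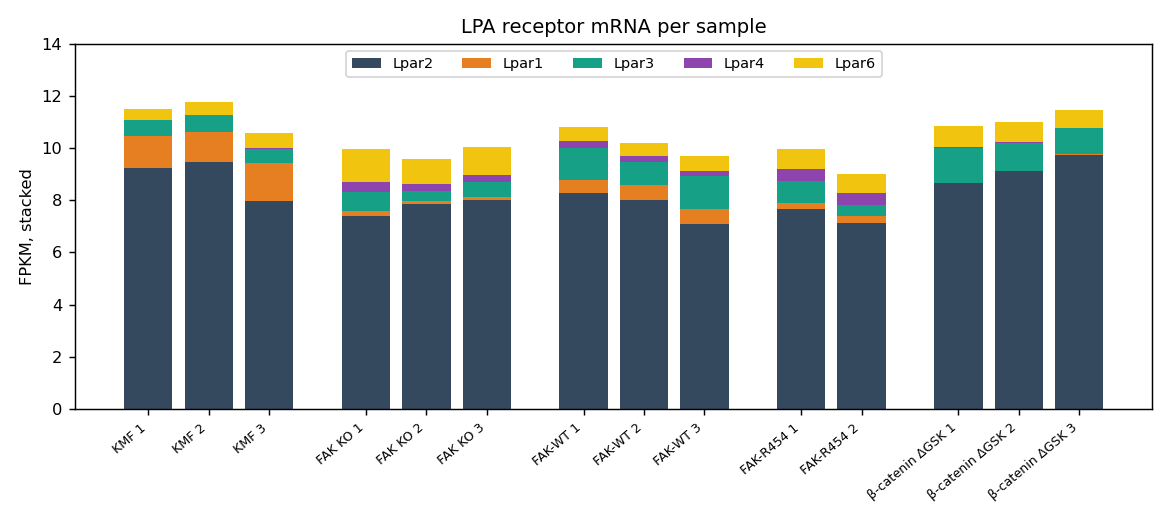
Stacked FPKM of the 5 LPA receptor genes in each of 14 samples (vertical axis, FPKM), by line and replicate. Lpar2 makes up most of every bar, the Lpar1 segment is thickest in KMF, and Lpar3 is thicker in FAK-WT and β-catenin ΔGSK than in FAK KO.

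Promoter sequences are shown for the 3 receptors with no annotated exon in the window, because Lpar3 rose in FAK-WT and β-catenin ΔGSK cells over FAK KO, whereas Lpar4 and Lpar6 did not. RefSeq (GRCm38.p6) gave windows for 5 of the 6 members, and no window matched Enpp2. The 250 bases before the start are printed 5′ to 3′ on the gene's strand, from chr3:146220711-146220960 (plus) for Lpar3, chrX:106920375-106920624 (plus) for Lpar4 and chr14:73237641-73237890 (plus) for Lpar6. Capitals mark a match to the letters searched on both strands, which were CTTTGA for TCF/LEF, the DNA-binding partners of β-catenin, GGAATG for TEAD and TGANTCA for AP-1.
Lpar3: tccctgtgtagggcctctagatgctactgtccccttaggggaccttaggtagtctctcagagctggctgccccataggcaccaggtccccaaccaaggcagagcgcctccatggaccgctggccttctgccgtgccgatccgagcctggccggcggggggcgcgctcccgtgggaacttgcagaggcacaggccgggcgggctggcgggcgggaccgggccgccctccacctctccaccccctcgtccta
Lpar4: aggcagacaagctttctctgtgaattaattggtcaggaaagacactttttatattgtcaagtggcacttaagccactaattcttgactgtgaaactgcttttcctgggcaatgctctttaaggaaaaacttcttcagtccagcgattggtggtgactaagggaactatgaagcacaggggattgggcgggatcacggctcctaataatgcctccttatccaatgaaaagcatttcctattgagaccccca
Lpar6: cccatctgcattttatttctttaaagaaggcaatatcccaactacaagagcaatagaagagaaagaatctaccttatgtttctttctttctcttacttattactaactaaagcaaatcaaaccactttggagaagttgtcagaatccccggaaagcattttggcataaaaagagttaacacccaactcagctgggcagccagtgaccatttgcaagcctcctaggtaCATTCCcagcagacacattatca

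Of these 3 windows, that of Lpar6 held a TEAD match, CATTCC on the printed strand, 23 to 18 bases before the start, and the others held none of the 3 motifs. Among 32851 mouse windows of the same length 12.6% held the TEAD letters, 13.8% those of TCF/LEF and 6.75% those of AP-1. The Lpar3 window was 69.6% G and C, against 43.6% in Lpar4 and 39.2% in Lpar6. These matches describe letters in the windows and say nothing of binding.

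Lpar1 (ENSMUSG00000038668, chromosome 4, 58435255 to 58553898, minus strand) encodes the widely expressed receptor best known for driving motility through Gi, Gq and G12/13. Its level was 1.23, 1.18 and 1.47 FPKM for the KMF samples, 0.187, 0.108 and 0.101 for FAK KO, 0.483, 0.578 and 0.575 for FAK-WT, 0.244 and 0.294 for FAK-R454, and 0.00994, 0 and 0.0480 for β-catenin ΔGSK. In descending order the lines were KMF, FAK-WT, FAK-R454, FAK KO and β-catenin ΔGSK, and no neighbours in that order overlapped. Lpar1 fell in FAK KO relative to KMF cells by 2.60 on the log2 scale (SE 0.25, limma adjusted p = 5.98e-05), the only 1 of 4 tested members called in that comparison, where 8.01% of all genes were called. The 20 tested genes nearest to Lpar1 had a median log2 fold change of -0.35 there, with 7 above 0, against 0.05 over all genes, and their part in the fall of Lpar1 was not tested.

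In FAK-WT cells Lpar1 stayed below KMF by a called log2 fold change of -1.11 (SE 0.16, limma adjusted p = 0.00169), where its 20 neighbours had a median of -0.47 against -0.04 over all genes, yet was above FAK KO. The counts behind it were 170 fragments in FAK-WT and 40 in FAK KO, and limma-voom gave a log2 fold change of 2.04 (SE 0.31, adjusted p = 9.05e-04). FAK-R454 was intermediate, with 57 fragments in 2 samples, and limma-voom did not call it above FAK KO (1.04, 95% interval 0.23 to 1.84, adjusted p = 0.0722) or below FAK-WT (FAK-WT over FAK-R454 1.00, 95% interval 0.42 to 1.57, adjusted p = 0.0540).

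β-catenin ΔGSK cells had 6 Lpar1 fragments in 3 samples, of which replicate 3 gave 5 and replicate 2 gave 0, a count that allows up to 0.0333 FPKM in that sample. Their level scaled to library size was 0.152 times that of FAK KO (95% counting interval 0.0526 to 0.360), and limma-voom gave an adjusted p of 0.00606. Such intervals cover counting error only.

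Lpar2 (ENSMUSG00000031861, chromosome 8, 69822429 to 69831102, plus strand) encodes a receptor with PDZ-binding scaffold partners. Its level was 9.24, 9.45 and 7.96 FPKM for the KMF samples, 7.39, 7.85 and 8.01 for FAK KO, 8.28, 8.02 and 7.10 for FAK-WT, 7.65 and 7.11 for FAK-R454, and 8.66, 9.14 and 9.73 for β-catenin ΔGSK. The samples of each line overlapped those of the next line in the order of levels, β-catenin ΔGSK, KMF, FAK-WT, FAK KO and FAK-R454. Lpar2 was higher in β-catenin ΔGSK than in FAK KO by 0.24 on the log2 scale (SE 0.08, limma adjusted p = 0.0288), a test that failed in 5 of the 6 fits that left out 1 sample. Without KMF replicate 3, Lpar2 was lower than in KMF by 0.27 for FAK KO (limma adjusted p = 0.0207) and by 0.26 for FAK-WT (limma adjusted p = 0.0462), values that with it were 0.19 (limma adjusted p = 0.0898) and 0.18 (limma adjusted p = 0.145). In FAK-WT over FAK KO cells its log2 fold change was 0.01 (95% interval -0.18 to 0.20, limma adjusted p = 0.950).

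Lpar3 (ENSMUSG00000036832, chromosome 3, 146220961 to 146286214, plus strand) encodes a receptor that prefers LPA with unsaturated acyl chains. It was measured at 0.593, 0.618 and 0.534 FPKM for the KMF samples, 0.719, 0.415 and 0.573 for FAK KO, 1.25, 0.881 and 1.25 for FAK-WT, 0.852 and 0.418 for FAK-R454, and 1.33, 1.06 and 0.995 for β-catenin ΔGSK. Every FAK-WT and β-catenin ΔGSK sample was above every sample of the other lines, as for Enpp2, and the lines within each of these 2 sets overlapped. Lpar3 rose in FAK-WT over FAK KO cells by 0.89 (SE 0.25, limma adjusted p = 0.0216) and in β-catenin ΔGSK over FAK KO cells by 0.89 (SE 0.22, limma adjusted p = 0.00825), both under the fold needed for a call. The FAK-WT test failed without FAK KO replicate 3 or FAK-WT replicate 1 or 3, with limma adjusted p-values of up to 0.0699. It was higher in FAK-WT than in KMF by 0.83 (SE 0.19, limma adjusted p = 0.00997). Between FAK-WT and FAK-R454 the log2 fold change was 0.79 (95% interval 0.03 to 1.56, limma adjusted p = 0.175). With 27 to 98 fragments per sample, each Lpar3 value is imprecise.

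Lpar4 (ENSMUSG00000049929, chromosome X, 106920625 to 106933900, plus strand) encodes a purinergic-like receptor that can raise cyclic AMP. Its fragments numbered 3, 0 and 4 for the KMF samples, 49, 27 and 35 for FAK KO, 34, 24 and 28 for FAK-WT, 53 and 63 for FAK-R454, and 4, 4 and 2 for β-catenin ΔGSK. In FPKM this was 0.0170 ± 0.0148 for KMF, 0.308 ± 0.0707 for FAK KO, 0.230 ± 0.0337 for FAK-WT, 0.460 ± 0.0134 for FAK-R454 (n = 2) and 0.0288 ± 0.0112 for β-catenin ΔGSK (SD, n = 3 elsewhere). Every FAK-R454 sample was above those of every other line, FAK KO and FAK-WT overlapped, and KMF and β-catenin ΔGSK were close to 0 and overlapped each other.

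The pooled level of Lpar4 scaled to library size in FAK KO was 17.4 times that in KMF (95% counting interval 8.16 to 44.2), and limma-voom gave an adjusted p of 3.59e-04. In β-catenin ΔGSK it fell to 0.0911 times the FAK KO level (95% counting interval 0.0425 to 0.174, limma-voom adjusted p = 1.58e-04). FAK-WT was below FAK-R454 by 1.00 on the log2 scale (SE 0.23, limma-voom adjusted p = 0.0429), but the limma fit of FPKM with no filter gave an adjusted p of 0.141, while FAK-WT over FAK KO gave -0.41 (SE 0.27, limma-voom adjusted p = 0.265). FAK-R454 over FAK KO gave 0.58 (95% interval 0.03 to 1.14), which did not pass the test (limma-voom adjusted p = 0.134).

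Lpar6 (ENSMUSG00000033446, chromosome 14, 73237895 to 73243294, plus strand) encodes a receptor known from inherited sparse hair. It was measured at 0.421, 0.537 and 0.572 FPKM for the KMF samples, 1.28, 0.987 and 1.05 for FAK KO, 0.546, 0.524 and 0.554 for FAK-WT, 0.780 and 0.719 for FAK-R454, and 0.835, 0.766 and 0.667 for β-catenin ΔGSK. FAK KO was above all other lines, β-catenin ΔGSK overlapped FAK-R454, and FAK-WT overlapped KMF below them. Lpar6 rose in FAK KO over KMF cells by 0.98 (SE 0.20, limma adjusted p = 0.00334) and fell in FAK-WT relative to FAK KO cells by 0.90 (SE 0.19, limma adjusted p = 0.00822). With limma-voom both changes passed the fold as well, at 1.11 (adjusted p = 3.15e-04) and -1.02 (adjusted p = 0.00109).

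For Lpar6, β-catenin ΔGSK over FAK KO gave -0.49 on the log2 scale (SE 0.18, limma adjusted p = 0.0398), with limma adjusted p-values from 0.0107 to 0.0805 over the other settings and up to 0.134 when 1 sample was left out. In FAK-R454 over FAK KO cells it was -0.50 (SE 0.20, limma adjusted p = 0.118), or -0.56 with limma-voom (adjusted p = 0.0383). Lpar6 lies inside Rb1 on the opposite strand, with 408 exon bases in common in GENCODE M21, and whether counting used strand is not given in the sources used here, so its level is uncertain. Rb1 itself was 3.97 ± 0.0582 FPKM for KMF, 4.24 ± 0.682 for FAK KO and 3.58 ± 0.0302 for FAK-WT (SD, n = 3 each). It was 4.45 ± 0.727 for β-catenin ΔGSK (SD, n = 3) and 3.59 ± 0.249 for FAK-R454 (n = 2). Rb1 samples of FAK KO (3.60 to 4.96) and β-catenin ΔGSK (3.73 to 5.18) overlapped, and these lines also had the highest Lpar6 means. The part of Rb1 in the Lpar6 values was not tested.

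Lpar5, the remaining LPA receptor gene and not a member here, averaged between 0.246 and 0.397 FPKM over the lines.

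**Figure D4:**
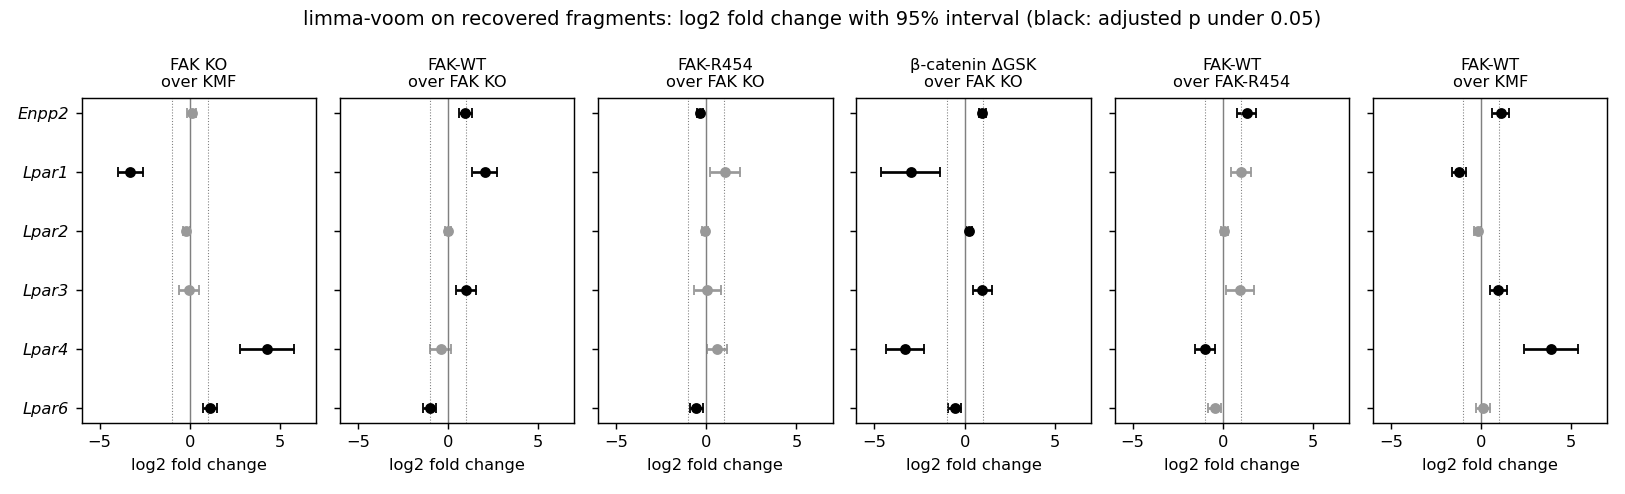
Log2 fold change with 95% interval (horizontal axis) of the 6 members in 6 comparisons by limma-voom on recovered fragments; black marks an adjusted p under 0.05, and dotted lines mark a log2 fold change of 1 in either direction. Lpar1 and Lpar4 have the widest spread of values. The lowest is -3.31 for Lpar4 in β-catenin ΔGSK over FAK KO. The highest is 4.28 for Lpar4 in FAK KO over KMF, where Lpar1 is at -3.29, and Lpar2 stays near 0.

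The members were also counted against all genes, with the share of all genes tested that passed the same rule beside each count; overlap was counted among members above the FPKM filter, as for all genes. In FAK KO over KMF, 2 of 4 tested members had a limma adjusted p under 0.05 at any fold (51.8% of all genes), 3 of 6 did with limma-voom (43.6%), and for 2 of 4 the samples of the lines did not overlap (60.8%). In FAK-WT over FAK KO it was 3 of 4 at any fold (40.8%), 4 of 6 with limma-voom (32.3%) and 3 of 4 without overlap (56.1%), and limma called no member (4.62%). Lpar1 passed the fold there but was below the filter, and 3 members had an unadjusted p under 0.05. By limma-voom 1 member was called, Lpar6, which was lower in FAK-WT. In FAK-R454 over FAK KO, 1 of 3 passed at any fold (19.7%), 2 of 6 with limma-voom (18.6%) and 2 of 3 did not overlap (55.1%), again with none called (2.74%), 2 at an unadjusted p under 0.05 and none called by limma-voom. The counts were highest for β-catenin ΔGSK over FAK KO, where 4 of 4 passed at any fold (58.1%), 6 of 6 with limma-voom (50.3%) and 4 of 4 did not overlap (64.2%), although by either tool none met the full rule for a call, which also asks for a mean above 1 FPKM (12.1%); 4 had an unadjusted p under 0.05.

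Between FAK-WT and FAK-R454, 1 of 3 members passed at any fold (7.82%), the same 1 was called (1.44%), 2 of 6 passed with limma-voom (7.28%) and 2 of 3 did not overlap (48.5%). Against KMF, FAK-WT had 3 of 4 at any fold (41.6%), 2 called (5.93%), 4 of 6 with limma-voom (34.5%) and 3 of 4 without overlap (55.5%). Each share rests on at most 6 genes, too few to set the members apart from other genes.

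Of all 12256 genes with a mean above 1 FPKM in some line, those whose log2 pattern over the 14 samples was most like that of Enpp2 were Rdh10, Cmpk2, Mtl5, Trpm6 and Reep6. Their root mean square difference from Enpp2, after centring each gene, ran from 0.29 to 0.35 on the log2 scale. Rdh10, a retinol dehydrogenase, averaged 12.1 FPKM for FAK KO, 22.9 for FAK-WT, 14.6 for FAK-R454 and 27.8 for β-catenin ΔGSK cells. Most like Lpar1 were Cela1, Kctd15, Fbxl2, Gstt1 and Trpv4, at 0.33 to 0.42. Cela1, an elastase, averaged 68.2 FPKM for KMF, 16.4 for FAK KO and 9.50 for β-catenin ΔGSK cells.

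The enzymes that remove or make LPA were taken as lists, described by counts and medians. Among all genes tested at any fold, 28.7% rose and 23.1% fell in FAK KO over KMF, 15.6% and 25.2% in FAK-WT over FAK KO, and 23.7% and 34.4% in β-catenin ΔGSK over FAK KO, and each list count below is read beside these shares; with 4 to 13 tested genes a list is not set apart by its count. The 4 LPA phosphatase genes all fell in FAK KO relative to KMF cells at a limma adjusted p under 0.05 (23.1% of all genes fell), with a median log2 fold change of -0.71 against 0.05 over all genes, and all 4 did so without KMF replicate 3. Ppap2b (now Plpp3), a lipid phosphate phosphatase at the cell surface, went from 11.0 ± 1.56 FPKM for KMF to 1.44 ± 0.138 for FAK KO (SD, n = 3 each), or -2.85 on the log2 scale. It was called higher than FAK KO in FAK-WT cells, at 4.48 ± 0.786 FPKM (log2 fold change 1.56), and in FAK-R454 cells, at 6.01 ± 0.521 FPKM (log2 fold change 1.99). In FAK-WT it was still called below KMF (-1.28). Ppap2a (Plpp1), its close relative, fell from 15.3 ± 0.959 FPKM for KMF to 6.99 ± 0.0744 for FAK KO. In FAK-WT over FAK KO, 3 of the 4 phosphatases rose at any fold (15.6% of all genes), with or without FAK-WT replicate 3, and in β-catenin ΔGSK over FAK KO 3 of 4 rose (23.7% of all genes), or 2 without β-catenin ΔGSK replicate 1. Ppap2c (Plpp2), the most abundant of them, stayed between 41.9 and 50.6 FPKM in the line means.

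Among 10 other genes of LPA production, 6 were tested, and in FAK KO over KMF cells 2 rose and 1 fell, as they did without KMF replicate 3, a share near the 51.8% of all genes that passed. Gdpd1, a lysophospholipase D inside the cell, rose from 3.20 ± 0.183 FPKM for KMF to 9.01 ± 0.963 for FAK KO (log2 fold change 1.46, SE 0.10, limma adjusted p = 8.68e-06). Agpat6, the most abundant of these 10, stayed between 19.9 and 22.8 FPKM in the line means. Of 5 LPA acyltransferase genes, which turn LPA into phosphatidic acid, 3 were higher in FAK-WT cells at any fold (15.6% of all genes), relative to FAK KO, with or without FAK-WT replicate 3. Agpat4 had the highest mean over all samples, at 43.9 to 58.8 FPKM in the line means, although Agpat1 was above it in KMF, FAK-R454 and β-catenin ΔGSK. Agpat2, which passed no fold requirement and is shown after its values were seen, was 8.68 ± 0.890 FPKM for FAK KO, 15.7 ± 1.72 for FAK-WT, 12.7 ± 1.35 for FAK-R454 (n = 2) and 4.37 ± 0.485 for β-catenin ΔGSK cells. It rose in FAK-WT (0.84 on the log2 scale, limma adjusted p = 7.37e-04) and fell in β-catenin ΔGSK (-0.98, limma adjusted p = 1.13e-04). Every FAK-R454 sample was also above every FAK KO sample.

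**Figure D5:**
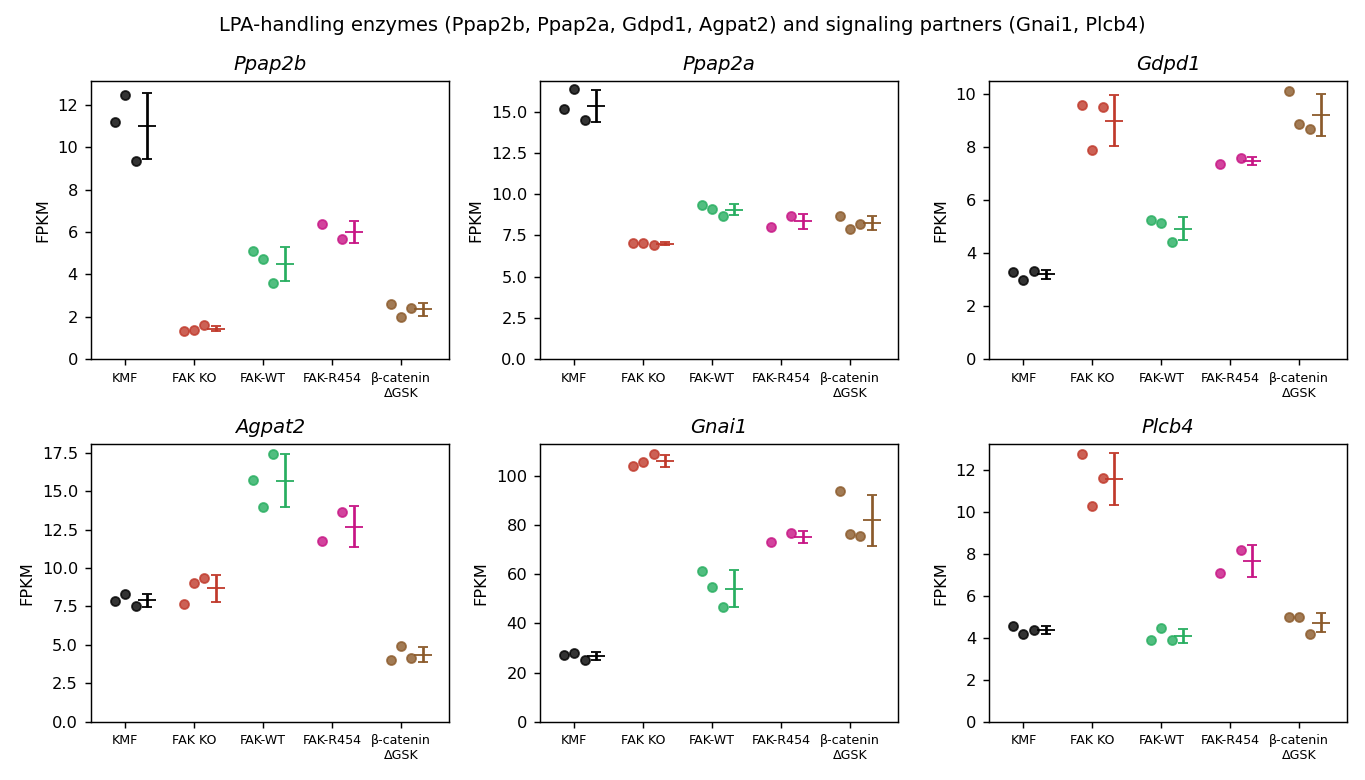
FPKM (vertical axes, each from 0) of 4 LPA-handling enzymes and 2 signaling partners in the 5 lines; points are samples and the bar beside them is the mean ± SD. Ppap2b and Ppap2a are highest in KMF, Gnai1 and Plcb4 are highest in FAK KO, and Agpat2 is highest in FAK-WT.

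LPA receptors act through G proteins, of which Gnai2, an inhibitory subunit gene, was at 206.9 to 248.3 FPKM in the line means. Gnai1, of the same class, rose from 26.7 ± 1.58 FPKM for KMF to 106.1 ± 2.48 for FAK KO (SD, n = 3 each) and was lower again in FAK-WT, at 54.2 ± 7.39 FPKM, where it was called above KMF (log2 fold change 1.01, or 0.96 and not called without KMF replicate 3). Plcb4, a phospholipase C that acts below Gq, rose from 4.37 ± 0.185 to 11.6 ± 1.24 FPKM and was called lower than FAK KO in FAK-WT (log2 fold change -1.48) and in β-catenin ΔGSK cells (-1.28). Gnas, the stimulatory subunit gene, was called lower in FAK KO than in KMF (-1.01), at 4.13 ± 0.752 against 8.77 ± 3.17 FPKM, and overlapping transcripts of its locus make this count uncertain. Plcb1, a relative of Plcb4, was called higher in β-catenin ΔGSK cells over FAK KO, at 1.36.

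Of 15 genes that LPA is known to induce, 13 were tested. FAK-WT cells held 5 of them above FAK KO at a limma adjusted p under 0.05 and none below it, where 15.6% of all genes rose and 40.8% passed in either direction, with a median log2 fold change of 0.16 against -0.08 over all genes. Ctgf and Vegfa, which encode a matricellular protein and an angiogenic factor, were the called genes, at log2 fold changes of 1.13 and 1.22. Without FAK-WT replicate 3, 4 rose and neither gene kept its call, at 0.87 for Ctgf and 0.82 for Vegfa. In FAK-R454 over FAK KO cells 2 rose and 1 fell (19.7% of all genes passed). The median log2 fold change there was also 0.16, against -0.03 over all genes, so this shift was not particular to FAK-WT. In β-catenin ΔGSK over FAK KO cells 4 rose and 5 fell (58.1% of all genes passed), or 5 and 5 without β-catenin ΔGSK replicate 1, and the 4 largest of 5 calls (12.1% of all genes) were Fos (1.64), higher, and Cxcl1 (-2.67), Plau (-1.65) and Ctgf (-1.19), lower. In FAK KO over KMF cells 3 rose and 6 fell (51.8% of all genes passed), or 3 and 5 without KMF replicate 3, with Vegfa (-1.87) and Egr1 (-1.84) called lower. Ctgf was also called higher in FAK-R454 than in FAK KO (1.13), Fos in FAK-WT over FAK-R454 (1.15), and Egr1 lower in FAK-WT than in KMF (-1.04).

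Among sphingosine 1-phosphate genes, the related lysolipid system, 7 of 11 were tested. In FAK KO over KMF 4 rose and 2 fell at any fold (51.8% of all genes passed), the same counts as without KMF replicate 3. Their median log2 fold change there was 0.41 against 0.05 over all genes. In FAK-WT over FAK KO 1 rose and 4 fell (40.8% of all genes passed), or 2 and 3 without FAK-WT replicate 3. S1pr5, one of its receptors, was 2.60 ± 0.409 FPKM for KMF, 1.09 ± 0.303 for FAK KO, 1.79 ± 0.234 for FAK-WT, 3.60 ± 0.227 for FAK-R454 (n = 2) and 3.56 ± 0.0921 for β-catenin ΔGSK (SD, n = 3 elsewhere). It was called lower in FAK KO than in KMF, and higher in FAK-R454 and β-catenin ΔGSK than in FAK KO. Spns2, which exports sphingosine 1-phosphate, had the highest mean over all samples, at 43.4 to 120.0 FPKM in the line means, although Sgpp1, a phosphatase of sphingosine 1-phosphate, was above it in KMF and FAK KO. Sphk1, which makes sphingosine 1-phosphate, was called lower in β-catenin ΔGSK than in FAK KO (log2 fold change -1.40) and lower in FAK-WT than in KMF (-1.03, or -0.97 and not called without FAK-WT replicate 3), and Enpp1, a relative of autotaxin that acts on nucleotides, was called lower in the former comparison (-1.43).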

How the data were processed

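Poly(A) mRNA libraries (NEBNext Ultra, paired-end) from 14 samples of 5 lines were sequenced; the study's methods name a HiSeq and the series text a NovaSeq instrument. The deposited values are FPKM for 35275 genes. The study's methods name TopHat2 as the mapper, the submitters' processing notes STAR 2.5, CASAVA 1.8, DESeq2 and mm10; the counting program and its use of strand are not given in the sources used here. FPKM times gene length over the smallest step gave whole fragments for 100% of values (tolerance 0.01), between 25390558 and 35289859 per sample. Of the 3 FAK-R454 samples the study's methods describe, 2 were analysed here. Labels name no batch.

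FPKM values were compared in 6 pairs of lines with limma 3.58.1 (R 4.3.3) on log2(FPKM + 0.1), with a variance trend, for genes with mean FPKM above 1 in at least 1 line of the pair. P-values were Benjamini-Hochberg adjusted over all genes tested, and calls also required a log2 fold change of at least 1 in size and a mean above 1 FPKM in the higher line. Alternatives changed the pseudocount, filter, scaling, trend, samples fitted, replicate block and chromosome centring, or used limma-voom on recovered fragments; voom from 10 fragments, and centring without FAK-WT replicate 3, were added after seeing the data. The code was tested on simulated data. Named genes are the members, genes of each list that were called (at most 4 per comparison, by size of change) or had the highest mean over all samples, the 5 genes most like each called member, Ptk2 and Ctnnb1; Agpat2, Agpat1, Sgpp1 and Rb1 were named outside this rule, after their values were seen. List counts without FAK-WT replicate 3, KMF replicate 3 or β-catenin ΔGSK replicate 1 were also added after seeing the data. The members and lists were chosen with earlier results of these data known. Counts over 1 list of signaling genes are not reported here.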

Additional observations from a re-analysis of the deposited data

How the results depend on the processing

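The number of members called was 1 in FAK KO over KMF, 1 in FAK-WT over FAK-R454 and 2 in FAK-WT over KMF. With FAK KO as the baseline limma called 0 for FAK-WT, 0 for FAK-R454 and 0 for β-catenin ΔGSK, where 3, 2 and 4 members had an unadjusted p under 0.05 and limma-voom called 1, 0 and 0. With no fold threshold the counts were 2 in FAK KO over KMF and, in that order, 3, 1 and 4. A pseudocount of 0.01 gave 2 in FAK KO over KMF and 1 in FAK-WT over FAK KO, as did limma-voom with either filter, and a pseudocount of 1 gave 1 in FAK-WT over KMF. A mean FPKM above 5 gave 0 in FAK KO over KMF and 1 in FAK-WT over KMF, where fewer members are tested. Median-of-ratios scaling gave 1 for FAK-WT and 1 for β-catenin ΔGSK over FAK KO, and FAK-WT over FAK-R454 fell to 0 with no filter and with no trend; the cause was not tested. Without 1 sample the count was 1 to 2 in FAK KO over KMF, 0 to 1 in FAK-WT over FAK KO, 0 to 1 in β-catenin ΔGSK over FAK KO, 0 to 1 in FAK-WT over FAK-R454 and 1 to 2 in FAK-WT over KMF; where 1 FAK-R454 sample remained, limma assumes that it varies like the other line.

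Of the members' log2 fold changes under the alternatives, 541 kept direction and side of the threshold or, below the filter and so untested, moved by less than 1 SD, 32 untested ones moved by more, 25 lost the test, 6 gained it and 4 tested ones reversed, from values of at most 0.11 in size. These were Enpp2 in FAK KO over KMF without KMF replicate 3, in a range of -0.0313 to 0.2329 over the samples left out, and Lpar2 in FAK-WT over FAK KO without FAK KO replicate 1 or FAK-WT replicate 1 or 2, in a range of -0.037 to 0.0725. Another 5 untested values changed sign, for Lpar3 in FAK KO over KMF (-0.05, 0.17 when centred, and -0.21 to 0.13 without 1 sample) and FAK-R454 over FAK KO (0.09, and -0.34 to 0.53), and for Lpar6 in FAK-WT over KMF (0.08, and -0.03 to 0.16). Lpar1 in FAK KO over KMF ran from -3.29 to -1.02, the latter with a pseudocount of 1.

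The sample numbers are not shown to pair the samples: same-numbered samples correlated across genes at -0.25 to 0.14 in FAK KO over KMF and 0.08 to 0.45 in β-catenin ΔGSK over FAK KO. With the replicate block the count of called genes over all genes went from 547 to 552 in FAK-WT over FAK KO, and Enpp2 stayed at 0.97 there. In comparisons with FAK-R454 the block takes nothing from replicate 3 of the other line, so Enpp2 was -0.30 over FAK KO (limma adjusted p = 0.0800), while FAK-WT exceeded FAK-R454 by 1.58 (limma adjusted p = 3.14e-07), and Lpar3 in the latter passed the test (0.71, limma adjusted p = 0.0451).

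Over all genes, calls in the 6 comparisons, in order (FAK KO over KMF first, then those 3 lines over FAK KO, then FAK-WT over FAK-R454 and over KMF), numbered 953, 547, 324, 1444, 170 and 702. They numbered 6161, 4837, 2325, 6928, 921 and 4934 with no fold threshold, 566, 273, 145, 955, 76 and 412 with a pseudocount of 1, and 459, 249, 129, 782, 65 and 320 with a mean FPKM above 5. In FAK-WT over FAK-R454 they were 81 without FAK-WT replicate 2, and 7 or 8 without a FAK-R454 sample. Depth limits Lpar1 and Lpar4 most, with as few as 0 fragments in a sample.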
